A study of Bos taurus with 18 samples.

Results

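The genes described here encode enzymes of prostaglandin, eicosanoid and nitric oxide synthesis: PLA2G4A, PTGS2, ALOX12 and NOS2. They are 4 of the 36075 genes in the count table, chosen by name with earlier results of these data known and found through lists of genes that the study had called in these samples, and all 4 were among the 17931 genes with enough counts to be tested. RNA was sequenced from primary epithelial cells (bEECs) and stromal cells (bESCs) of the bovine endometrium that shared an endometrium-on-a-chip device, each cell type on its own side of a porous membrane. The medium that flowed over the bEECs carried PBS as vehicle control (VC), recombinant bovine CAPG (rbCAPG, an actin-capping protein) or recombinant bovine PDI (rbPDI, a protein disulfide isomerase) for 24 h, each protein at 1 µg/mL. The cells came from the uterine tracts of 3 cattle collected at an abattoir in the late luteal phase, and each animal gave 1 sample to each of the 6 groups, so n = 3 per group and replicate numbers stand for animals. The comparisons ask how the endometrium responds to 2 proteins that the conceptus secretes around the time of pregnancy recognition. The bESCs were not in the treated flow themselves, the cell types were purified by culture rather than sorted, and 3 animals limit what the groups can stand for.

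Eicosanoid synthesis begins when a phospholipase A2 frees arachidonic acid from membrane phospholipids. Cyclooxygenases turn the freed acid into prostaglandin H2, the parent of the other prostaglandins, while lipoxygenases insert oxygen at a set carbon and give hydroxy fatty acids. In ruminants, prostaglandin F2α from the endometrium ends the life of the corpus luteum, prostaglandin E2 has been linked to its maintenance, and prostaglandins made in the uterus take part in elongation of the conceptus. Nitric oxide, which relaxes smooth muscle and acts in host defence, is made from arginine by nitric oxide synthases, of which NOS2 is the inducible form.

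Levels are given as CPM, counts scaled to a common library size with TMM factors that adjust for library composition, and total counts ran from 10072851 in rbPDI bESCs of animal 1 to 44253149. A gene was called when its Benjamini-Hochberg adjusted p-value over all tested genes was under 0.05 in edgeR's quasi-likelihood test and its absolute log2 fold change was above 1. RNA came from whole cell layers, so fewer cells of a type and less RNA per cell cannot be told apart. Labelled cell types were checked with the markers whose identifiers were known: 4 of 9 epithelial markers (MUC1, OCLN, RBM47, FERMT1) summed to between 432 and 1051 CPM in bEECs and 5.35 to 11.9 CPM in bESCs, and 5 of 11 stromal markers (COL6A1, HAND2, ZEB1, VCAN, PCOLCE2) to between 270.3 and 438 CPM in bESCs. The comparisons of rbCAPG and rbPDI with VC share the VC samples, so they are given side by side and are not independent of each other.

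**Figure D1:**
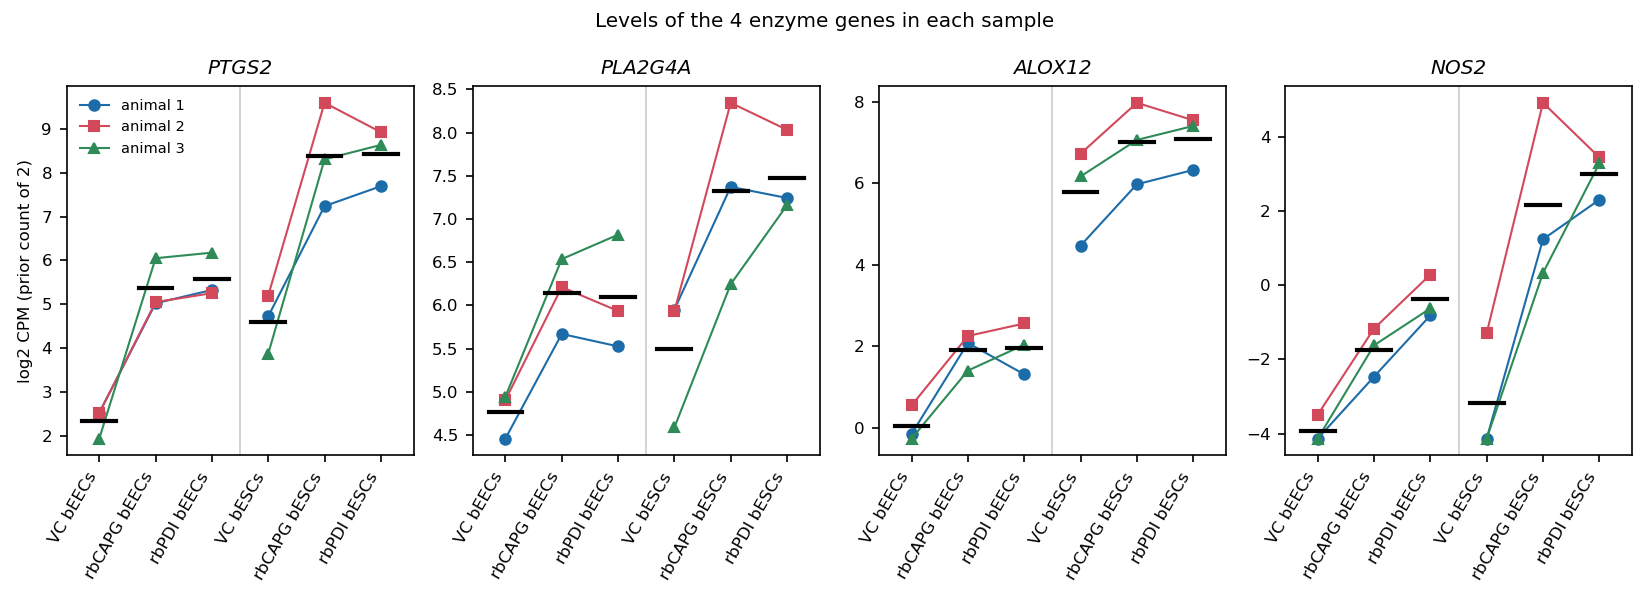
Level of each gene (y axis, log2 CPM with a prior count of 2) in the 18 samples by group (x axis), with animals 1, 2 and 3 joined within a cell type and a black bar at the mean of the 3 log2 values. Every line rises from VC to each protein, and PTGS2 reaches its highest value in rbCAPG bESCs of animal 2.

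PLA2G4A (ENSBTAG00000013298) encodes cytosolic phospholipase A2 alpha, the enzyme that releases arachidonic acid. In bEECs of animals 1, 2 and 3 it stood at 22.0, 29.9 and 30.8 CPM with VC, at 50.9, 74.1 and 92.8 CPM with rbCAPG, and at 46.1, 61.2 and 112.8 CPM with rbPDI. In bESCs of the same animals the levels were 61.9, 61.1 and 24.0 CPM with VC, 166, 325 and 75.9 CPM with rbCAPG, and 151, 262 and 143 CPM with rbPDI. The VC samples lay below all samples of either protein in each cell type, although the margin between rbCAPG and VC bESCs was narrow, with animal 3 low in both.

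Mean PLA2G4A in bEECs was 27.6 ± 4.86 CPM (SD, n = 3) with VC against 72.6 ± 21.0 with rbCAPG and 73.4 ± 35.0 with rbPDI. The log2 fold change was 1.40 (SE 0.48, edgeR adjusted p = 0.372) with rbCAPG and 1.41 (SE 0.48, edgeR adjusted p = 0.302) with rbPDI, and neither was called. In bESCs the means were 49.0 ± 21.6 CPM with VC, 189 ± 126 with rbCAPG and 185 ± 66.2 with rbPDI. The log2 fold changes there, 1.95 (SE 0.49, edgeR adjusted p = 0.393) and 1.92 (SE 0.49, edgeR adjusted p = 0.187), also missed the threshold.

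Within animals, PLA2G4A was higher with protein than with VC in 3 of 3 animals for each protein and cell type. The log2 change within an animal ran from 1.21 to 1.59 with rbCAPG and 1.03 to 1.87 with rbPDI in bEECs, and from 1.42 to 2.41 and 1.29 to 2.57 in bESCs. With the animal added to the edgeR model as a block, PLA2G4A was called in all 4 comparisons. Its blocked edgeR adjusted p was 0.0148 for rbCAPG and 0.0125 for rbPDI in bEECs, and 0.00647 and 0.00248 in bESCs. These were the lowest values among its alternatives, and the highest was 1.00 in each comparison. The alternatives include a test for a log2 fold change beyond 1, which asks for more than any change. Leaving out 1 sample gave an edgeR adjusted p of at most 0.869 for rbPDI in bEECs and 0.763 in bESCs. For rbCAPG it gave no lower maximum.

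PTGS2 (ENSBTAG00000014127) encodes cyclooxygenase-2, the inducible enzyme that makes prostaglandin H2 from arachidonic acid. Of the 4 genes it was the one called in every comparison with VC, with either protein and in either cell type. In bEECs of animals 1, 2 and 3 it was at 5.74, 5.70 and 3.80 CPM with VC, at 32.5, 33.2 and 66.3 CPM with rbCAPG, and at 40.1, 38.1 and 72.3 CPM with rbPDI. In bESCs it was at 26.5, 36.8 and 14.7 CPM with VC, at 151, 770.1 and 316 CPM with rbCAPG, and at 206, 484 and 396 CPM with rbPDI. No treated sample came near the VC range of its cell type. Animal 3, which had the lowest PTGS2 with VC in both cell types, had the highest PTGS2 of the bEECs once either protein was present.

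Epithelial PTGS2 averaged 5.08 ± 1.11 CPM (SD, n = 3) in VC samples and rose to 44.0 ± 19.3 with rbCAPG, a log2 fold change of 3.11 (SE 0.55, 95% interval 1.94 to 4.29, edgeR adjusted p = 0.0106). With rbPDI the mean was 50.2 ± 19.2 CPM and the log2 fold change 3.31 (SE 0.56, 95% interval 2.12 to 4.49, edgeR adjusted p = 0.00506). These are changes of 8.66-fold and 9.88-fold. The call with rbCAPG depended on single libraries, since the adjusted p in edgeR became 0.0708, 0.0573 or 0.119 without VC bEECs of animal 1, 2 or 3, and 0.0631 without rbCAPG bEECs of animal 3, at log2 fold changes from 2.69 to 3.21. The call with rbPDI was lost (edgeR adjusted p = 0.0589) only without VC bEECs of animal 3.

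Stromal PTGS2 averaged 26.0 ± 11.1 CPM (SD, n = 3) in VC samples and rose to 412 ± 321 with rbCAPG, a log2 fold change of 3.99 (SE 0.57, 95% interval 2.78 to 5.20, edgeR adjusted p = 0.0101). With rbPDI the mean was 362 ± 142 CPM and the log2 fold change 3.80 (SE 0.57, 95% interval 2.60 to 5.002, edgeR adjusted p = 0.00889). Ordered by p-value over the 17931 genes tested, PTGS2 stood 4th with rbCAPG and 9th with rbPDI. Without VC bESCs of animal 1 or 3 the edgeR adjusted p was 0.101 or 0.0956 for rbCAPG and 0.0732 or 0.0639 for rbPDI, with log2 fold changes from 3.52 to 4.02. Without rbCAPG bESCs of animal 2, the highest PTGS2 value of all samples, the log2 fold change with rbCAPG was 3.17 (edgeR adjusted p = 0.0292).

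Within animals, the log2 change of PTGS2 ran from 2.49 to 4.10 with rbCAPG and 2.73 to 4.23 with rbPDI in bEECs, and from 2.51 to 4.42 and 2.96 to 4.75 in bESCs. It was positive in 3 of 3 animals in each comparison. Over all alternatives its adjusted p in edgeR or DESeq2 ran from 2.08e-07 to 0.119 (rbCAPG) and 1.26e-08 to 0.0589 (rbPDI) in bEECs, and from 5.61e-12 to 0.605 and 8.19e-11 to 0.114 in bESCs, with log2 fold changes no lower than 2.69.

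**Figure D2:**
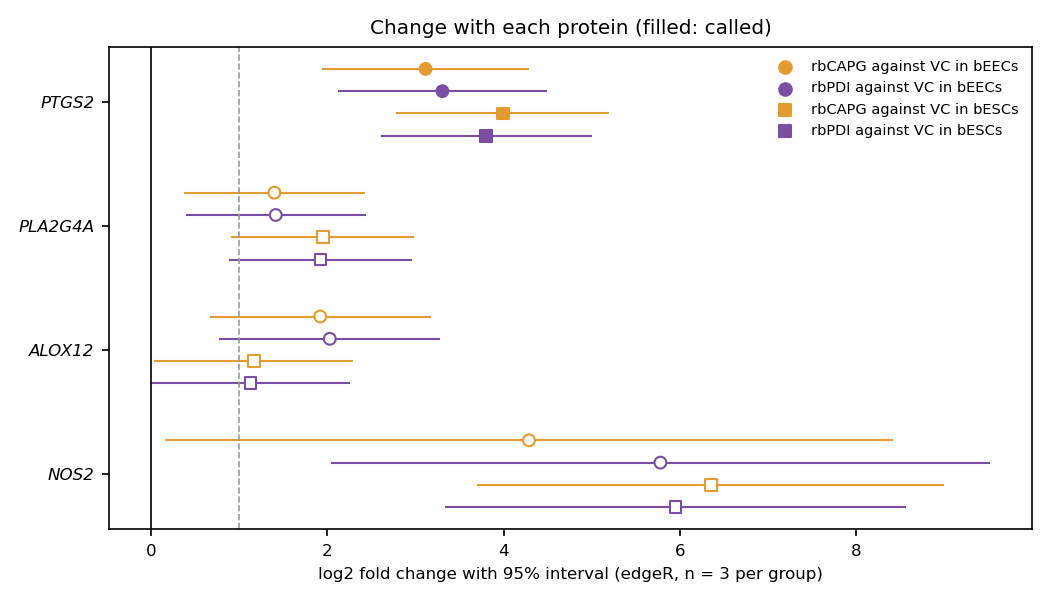
Log2 fold change against VC (x axis, edgeR, 95% intervals, n = 3 per group) for the 4 genes in bEECs (circles) and bESCs (squares), with the dashed line at a log2 fold change of 1 and filled symbols for called changes. PTGS2 alone has filled symbols, and the intervals of NOS2 are the widest in each comparison.

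ALOX12 (ENSBTAG00000021933) encodes arachidonate 12-lipoxygenase, whose main product is 12-hydroperoxyeicosatetraenoic acid. Of the 4 genes, it had the largest fitted difference between the cell types. In VC samples of animals 1, 2 and 3 it stood at 0.846, 1.41 and 0.778 CPM in bEECs and at 22.1, 105 and 71.7 CPM in bESCs. The bEECs were far below the bESCs in every animal, and the log2 fold change between cell types was -6.04 (SE 0.67, edgeR adjusted p = 2.03e-06).

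ALOX12 in bEECs was at 4.18, 4.71 and 2.59 CPM with rbCAPG and at 2.43, 5.84 and 4.05 CPM with rbPDI, above all VC samples. From a VC mean of 1.01 ± 0.346 CPM (SD, n = 3), the means were 3.83 ± 1.10 with rbCAPG and 4.11 ± 1.71 with rbPDI. The log2 fold changes of 1.92 (SE 0.59, edgeR adjusted p = 0.257) and 2.03 (SE 0.59, edgeR adjusted p = 0.161) were not called. With the animal as a block, both were (edgeR adjusted p = 0.00189 and 0.000957).

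In bESCs, ALOX12 was at 62.7, 251 and 133 CPM with rbCAPG and at 80.0, 186 and 169 CPM with rbPDI. These ranges overlapped the VC range, because animal 2 with VC exceeded animal 1 with either protein. The means were 66.4 ± 41.9 CPM (SD, n = 3) with VC, 149 ± 94.9 with rbCAPG and 145 ± 57.0 with rbPDI. The log2 fold change was 1.16 (SE 0.53, edgeR adjusted p = 1.00) with rbCAPG and 1.13 (SE 0.53, edgeR adjusted p = 0.941) with rbPDI. Within animals, however, ALOX12 was higher with protein in 3 of 3 cases each, by log2 changes of 0.89 to 1.504 and 0.82 to 1.86. The blocked test called both (edgeR adjusted p = 0.0436 and 0.0163). In both cell types the blocked values were the lowest among the alternatives for ALOX12, whose highest was 1.00, counting the test for a log2 fold change beyond 1.

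Of the 18 ALOX12 values, 14 were not whole numbers in the deposited table, against 23.3% of all values, as arises when reads are divided with another feature or another place in the genome. In a reference gene table of another genome assembly than the counts, ALOX12 overlaps an uncharacterised locus, LOC112442630, and lies beside its relative ALOX12E. Whether the annotation used for counting holds the same overlap was not checked. PTGS2, PLA2G4A and NOS2 had 3, 1 and 2 values that were not whole. PTGS2 and PLA2G4A are neighbours on the same chromosome in that table.

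NOS2 (ENSBTAG00000006894), the inducible nitric oxide synthase, was close to undetected without a protein. In bEECs of animals 1, 2 and 3 it had 0, 1 and 0 counts with VC, 3, 13 and 9 counts with rbCAPG, and 12, 34 and 22 counts with rbPDI. The 3 groups did not overlap, and in each animal the count was highest with rbPDI. A library's count of 0 allows up to 3 counts, so rbCAPG bEECs of animal 1 were at that limit. Summed over animals and scaled to library size, the rbCAPG counts (25) were 26.8 times the VC count (1), with an exact 95% Poisson interval of 4.38 to 1099, and the rbPDI counts (68) were 73.9 times the VC count, with an interval of 12.8 to 2960. Those intervals cover counting error only. In edgeR the fitted log2 fold changes were 4.29 (SE 1.96, adjusted p = 0.660) and 5.78 (SE 1.77, adjusted p = 0.195), and neither was called. Without VC bEECs of animal 2, which held the single VC count, the fitted values were 6.25 (edgeR adjusted p = 0.601) and 7.74 (edgeR adjusted p = 0.347), again not called, and are no bounds since VC was then at 0. The blocked edgeR test called the rbPDI change (adjusted p = 0.0333) and not the rbCAPG change (adjusted p = 0.243).

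In bESCs, NOS2 had 0, 17 and 0 counts with VC, 84, 1620 and 52 counts with rbCAPG, and 56, 500 and 417 counts with rbPDI. Scaled to library size, these were 0, 0.351 and 0 CPM, then 2.30, 30.1 and 1.20 CPM, then 4.87, 10.8 and 9.64 CPM. All samples with protein lay above all VC samples, and animal 2 was the highest in each of the 3 groups. The log2 fold change was 6.35 (SE 1.25, edgeR adjusted p = 0.0862) with rbCAPG and 5.95 (SE 1.24, edgeR adjusted p = 0.0790) with rbPDI, with 95% intervals of 3.70 to 9.002 and 3.33 to 8.57. Blocked by animal, both were called (edgeR adjusted p = 0.00552 and 0.00142). Over all alternatives the adjusted p of edgeR or DESeq2 for NOS2 ran from 0.0789 to 1.00 (rbCAPG) and 0.00876 to 0.653 (rbPDI) in bEECs, and from 0.00073 to 1.00 and 0.00142 to 0.497 in bESCs.

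The rbCAPG mean for NOS2 in bESCs, 11.2 ± 16.4 CPM (SD, n = 3), was set by animal 2. Without that library the log2 fold change was 3.69 (edgeR adjusted p = 0.485), whereas without rbCAPG bESCs of animal 1 or 3 it was 6.86 or 6.91 and called (edgeR adjusted p = 0.0379 and 0.0418). The rbPDI mean, 8.44 ± 3.15 CPM, was more even. Without VC bESCs of animal 2, the VC library that held NOS2 counts, the rbPDI change was called (edgeR adjusted p = 0.0470) and the rbCAPG change was not (edgeR adjusted p = 0.0660). The remaining VC libraries were then both at 0, so the fitted log2 fold changes of 11.18 and 11.61 depend on the prior count and are no bounds.

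Counted over the 4 genes, 1 was called in each comparison with VC, and it was PTGS2 each time. Over all tested genes the share called higher was 0.513% for rbCAPG and 0.77% for rbPDI in bEECs, and 0.0948% for rbCAPG and 0.173% for rbPDI in bESCs. The levels with protein lay above all VC levels without overlap for 4 of the 4 genes in bEECs with either protein, against 8.72% of tested genes for rbCAPG and 8.06% for rbPDI, and for 3 of 4 in bESCs (all but ALOX12), against 3.02% and 4.1%. The median log2 fold change of the 4 genes was 2.52 and 2.67 in bEECs and 2.97 and 2.86 in bESCs, while the median over all tested genes lay between -0.01 and 0.02. The symbols were matched to identifiers through lists that the study had called in these same samples. Those lists, made with DESeq2, held changes with rbCAPG in bEECs and changes with rbCAPG in bESCs. The counts and medians for those contrasts are therefore not independent evidence. The rbPDI contrasts share the VC samples with them, so their counts and medians are not independent of that choice either.

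With the animal as a block, edgeR called 3 of 4 genes for rbCAPG in bEECs (all but NOS2), against 2.19% of tested genes, and 4 of 4 in the other comparisons with VC, against 2.96% for rbPDI in bEECs, 0.48% for rbCAPG in bESCs and 1.05% for rbPDI in bESCs. DESeq2 without the block called PTGS2 and ALOX12 for rbCAPG in bEECs (1.38% of genes called) and PTGS2, ALOX12 and NOS2 for rbPDI in bEECs (2.01%). In bESCs it called PTGS2, PLA2G4A and NOS2 with each protein (0.412% and 1.02%). The study made its lists with DESeq2 as well, and its rbCAPG lists gave these genes their identifiers. The DESeq2 calls for rbCAPG therefore largely repeat that selection and are not independent evidence, and those for rbPDI share the VC samples. PTGS2 was called by each of these 3 tests in each comparison with VC, and the calls for the other 3 genes depended on the test.

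**Figure D3:**
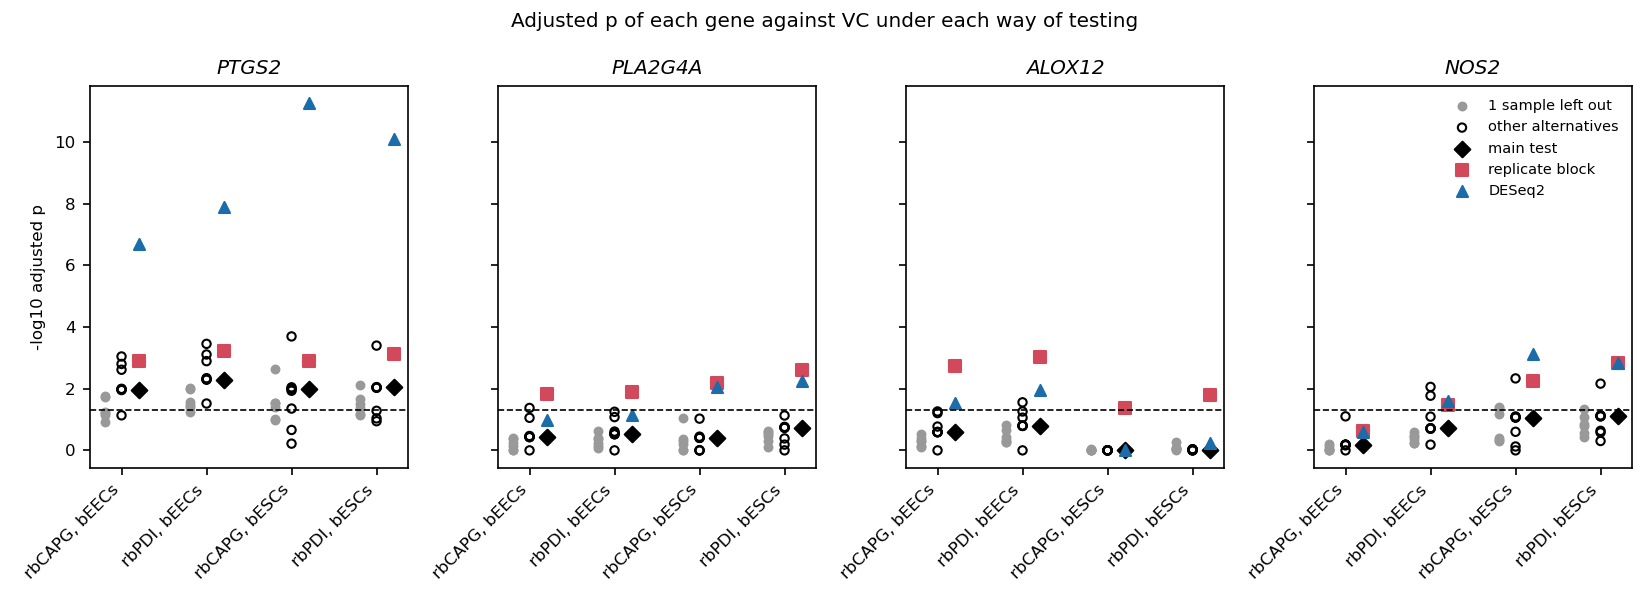
Adjusted p-value (y axis, -log10) of each gene in the 4 comparisons with VC (x axis) under the main edgeR test (black diamonds), with the animal as a block (red squares), in DESeq2 (blue triangles), with 1 sample left out (grey) and under the other alternatives (open circles), with the dashed line at 0.05. The blocked test lies above the line everywhere except for NOS2 with rbCAPG in bEECs.

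The proteins were also compared with each other. In bEECs the log2 fold change of rbPDI against rbCAPG was 0.19 for PTGS2 (95% interval -0.88 to 1.27), 0.02 for PLA2G4A (-0.99 to 1.02), 0.11 for ALOX12 (-1.06 to 1.28) and 1.49 for NOS2 (-0.91 to 3.89). In bESCs it was -0.19 for PTGS2 (-1.26 to 0.88), -0.03 for PLA2G4A (-1.03 to 0.98), -0.04 for ALOX12 (-1.15 to 1.08) and -0.40 for NOS2 (-2.38 to 1.58). None of the 4 genes was called in either cell type (edgeR adjusted p = 1.00 throughout), and neither was any other tested gene, a share of 0%. At an unadjusted p under 0.05 edgeR listed 103 genes in bEECs and 319 in bESCs, none of the 4 among them, and DESeq2 called 0. With the animal as a block, edgeR called 0 genes as well. The intervals come from the fit without the block, and blocked intervals were not computed. They leave room for differences of about 1 log2 unit either way for the 3 eicosanoid genes and of more than that for NOS2. NOS2 in bEECs was the single case in which the rbPDI and rbCAPG samples did not overlap, with 0.511, 1.16 and 0.591 CPM against 0.124, 0.388 and 0.268 CPM, and 4.46% of tested genes showed no overlap between the proteins there.

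Between the cell types with VC, PTGS2 was lower in bEECs than in bESCs by a log2 fold change of -2.35 (SE 0.54, edgeR adjusted p = 0.00194), and ALOX12 was lower as given above. These were the 2 of 4 genes called, against 38.5% of tested genes. PLA2G4A differed by -0.83 (SE 0.48, edgeR adjusted p = 0.163), with overlapping samples, since bEECs of animal 3 exceeded its bESCs. NOS2, with 1 count against 17, could not be ranked between the cell types at this depth (log2 fold change -3.31, SE 2.09, edgeR adjusted p = 0.202).

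An interaction term compared the change seen in bEECs with that seen in bESCs. For rbCAPG the change in bEECs minus that in bESCs was -0.87 for PTGS2 (95% interval -2.41 to 0.66), -0.55 for PLA2G4A (-1.97 to 0.87) and 0.75 for ALOX12 (-0.90 to 2.41). For rbPDI it was -0.50 for PTGS2 (-2.03 to 1.03), -0.51 for PLA2G4A (-1.93 to 0.91) and 0.90 for ALOX12 (-0.76 to 2.56). None of the 4 was called (edgeR adjusted p = 1.00 for each), against 0.0669% and 0.0948% of tested genes, and the interval for NOS2 was too wide to be read (-11.59 to 7.47 for rbCAPG). These intervals too come from the fit without the animal as a block. With the block none of the 4 was called either, and ALOX12 had an edgeR adjusted p of 0.762 for rbCAPG and 0.597 for rbPDI. The smaller ALOX12 change in bESCs was therefore not shown to differ from that in bEECs.

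Ordered by mean level, all 4 genes were highest in rbCAPG bESCs and next highest in rbPDI bESCs, and these neighbours overlapped for each gene. That order rested on animal 2, since in animals 1 and 3 rbPDI bESCs exceeded rbCAPG bESCs for PTGS2, ALOX12 and NOS2, and for PLA2G4A in animal 3. With the animal as a block the fitted difference favoured rbPDI for all 4 genes, with no call (log2 fold change 0.0049 for PTGS2, 0.17 for PLA2G4A, 0.10 for ALOX12 and 0.93 for NOS2). PTGS2, PLA2G4A and NOS2 then followed in rbPDI bEECs, without overlap with rbPDI bESCs, then rbCAPG bEECs, VC bESCs and VC bEECs. For each of these 3 genes rbPDI and rbCAPG bEECs lay next to each other, overlapping for PTGS2 and PLA2G4A but not NOS2, and rbCAPG bEECs overlapped VC bESCs. PLA2G4A in rbCAPG bESCs went down to 75.9 CPM in animal 3, below the highest rbPDI bEECs (112.8 CPM) and rbCAPG bEECs (92.8 CPM). ALOX12 kept a different order, with VC bESCs above the treated bEECs without overlap.

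The bEEC samples also differed in markers of other cells. The markers read here have an identifier because the study listed them as changed with rbCAPG in these samples, in either cell type. Their rises with protein are therefore not independent evidence of a change in cell content. The 5 stromal markers summed to 10.5 to 21.1 CPM in VC bEECs, 26.9 to 55.9 CPM in rbCAPG bEECs and 22.6 to 49.6 CPM in rbPDI bEECs. The 2 of 6 leukocyte markers with an identifier (CD14 and AIF1) summed to 12.7 to 21.0 CPM in VC bEECs, 44.7 to 58.4 CPM in rbCAPG bEECs and 53.0 to 71.5 CPM in rbPDI bEECs, and AIF1 was at 0 in all VC bESCs. Of 5 endothelial markers 2 had an identifier (TEK and SELP), with sums of 1.53 to 3.75, 11.9 to 15.9 and 5.07 to 37.4 CPM. The epithelial sum in bEECs was 432 to 660 CPM with VC, 922 to 979 CPM with rbCAPG and 865 to 1051 CPM with rbPDI. MUC1 made up most of that rise, with means of 318, 698 and 711 CPM, and FERMT1 had means of 17.8, 49.8 and 52.5 CPM. OCLN (93.2, 103 and 105 CPM) and RBM47 (94.6, 105 and 106 CPM) moved little. The part of stromal, leukocyte or endothelial cells in the bEEC values of the 4 genes was not tested. In bESCs the 5 stromal markers overlapped between VC (270.3 to 307.5 CPM) and the proteins (295 to 438 and 301 to 425 CPM). The 2 endothelial markers did not overlap between VC and rbCAPG bESCs, at 116 to 214 CPM and 316 to 646 CPM, and spread over 82.2 to 518 CPM in rbPDI bESCs. SELP, an adhesion receptor, made up nearly all of these sums, with means of 162, 451 and 299 CPM against TEK means of 0.303, 0.303 and 0.305 CPM. The leukocyte sums in bESCs were 4.35 to 18.3 CPM with VC, 5.93 to 20.03 CPM with rbCAPG and 6.38 to 14.4 CPM with rbPDI. The part of these cells in the stromal rise of PTGS2, or in the higher PLA2G4A and NOS2 values there, was not tested.

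Since each device held both cell types, the bEEC level could be expressed as a percentage of the bESC level of the same device. For ALOX12 this was 1.09 to 3.83% with VC, 1.88 to 6.66% with rbCAPG and 2.40 to 3.14% with rbPDI. The stromal marker VCAN, a matrix proteoglycan, ranged over 1.90 to 2.85%, 2.01 to 12.7% and 2.68 to 8.27%, and ZEB1, a mesenchymal transcription factor, stood at 5.25 to 7.82%, 13.5 to 33.2% and 18.4 to 25.4%. The ALOX12 percentages thus overlapped those of VCAN and lay below those of ZEB1 under each treatment. PTGS2 in bEECs was 15.5 to 25.9% of its stromal level with VC, 4.30 to 21.6% with rbCAPG and 7.88 to 19.4% with rbPDI, and PLA2G4A was 35.5 to 128%, 22.8 to 122% and 23.4 to 78.9%. For NOS2 the percentages were 1.29 to 22.3% with rbCAPG and 6.12 to 10.7% with rbPDI. COL6A1 ranged over 10.7 to 33.1% with rbCAPG and 6.49 to 23.5% with rbPDI. PCOLCE2 ranged over 6.50 to 14.7% and 7.35 to 22.1%, and HAND2 over 5.81 to 16.4% and 2.04 to 7.67%. PTGS2 and NOS2 thus overlapped COL6A1 and PCOLCE2 with either protein, and PTGS2 overlapped ZEB1 as well. With VC, PTGS2 overlapped COL6A1 (4.91 to 17.0%) and lay above the other stromal markers.

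**Figure D4:**
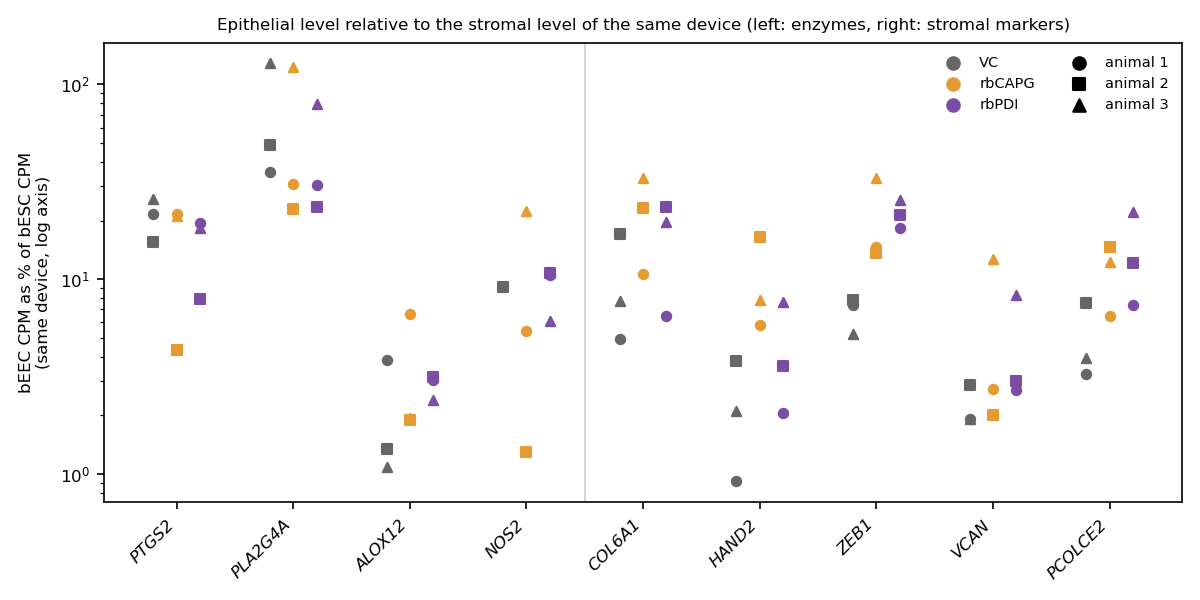
Level in bEECs as a percentage of the level in bESCs of the same device (y axis, log scale) for the 4 enzyme genes (left) and 5 stromal markers (right), coloured by treatment and shaped by animal. ALOX12 lies between 1.09 and 6.66%, in the range of VCAN and HAND2, while PTGS2 and PLA2G4A lie mostly higher. PTGS2 overlaps COL6A1 under each treatment. NOS2 is not drawn where it was at 0 in the bESCs.

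Of 62 genes listed for these pathways, from phospholipases and prostaglandin synthases to prostaglandin receptors and arginine metabolism, 8 (12.9%) had a known identifier, and the other 54 were not analysed here. Besides the 4 enzymes these were PLA2R1, GPX2, GPX3 and CYP4V2. Of the 8, the number called higher was 1 for rbCAPG and 2 for rbPDI in bEECs, and 1 for each protein in bESCs, and none was called lower. The shares of all tested genes called higher were, in the same order, 0.513%, 0.77%, 0.0948% and 0.173%. The median log2 fold change of the 8 was 1.73 and 1.79 in bEECs, and 0.97 and 1.03 in bESCs, but all 8 have an identifier because the study listed them as changed with rbCAPG in these samples. These counts and medians therefore describe the 8 genes and not the pathways.

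The second call in bEECs was PLA2R1, a receptor for secreted phospholipases A2. Its level rose from 0.621 ± 0.361 CPM (SD, n = 3) in VC samples to 6.003 ± 2.91 with rbPDI, a log2 fold change of 3.28 (SE 0.67, edgeR adjusted p = 0.0254), and was 4.28 ± 3.26 with rbCAPG (log2 fold change 2.80, SE 0.66, edgeR adjusted p = 0.0859). With the animal as a block the rbCAPG change was called as well (edgeR adjusted p = 0.00224). In bESCs, where it was more abundant, PLA2R1 stayed at 31.2 ± 15.1, 38.5 ± 11.4 and 37.3 ± 10.1 CPM. Its change with rbPDI was 3.02 log2 units larger in bEECs than in bESCs, which missed the threshold in the main test (edgeR adjusted p = 0.485) and passed it with the animal as a block (edgeR adjusted p = 0.0132). With VC, PLA2R1 resembled ALOX12 in being far lower in bEECs than in bESCs (log2 fold change -5.65, edgeR adjusted p = 7.88e-06).

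GPX2 and GPX3, glutathione peroxidases that reduce hydroperoxides, were higher in bEECs than in bESCs, with log2 fold changes of 10.84 and 4.91 between the cell types with VC (edgeR adjusted p = 6.23e-09 and 1.65e-06). Their bEEC means were 131 and 48.1 CPM with VC, 265 and 140 CPM with rbCAPG, and 271 and 108 CPM with rbPDI. None of these changes was called in the main test, and the VC samples of both genes lay below all samples with protein. CYP4V2, a fatty acid hydroxylase, was at 0.566 CPM with VC in bEECs, 1.301 with rbCAPG and 1.67 with rbPDI, a log2 fold change of 1.55 (edgeR adjusted p = 0.0564) for the latter, and it was 27.0, 24.7 and 23.7 CPM in bESCs. With the animal as a block, edgeR called GPX3 with rbCAPG (adjusted p = 0.0246), GPX2 with rbPDI (adjusted p = 0.0202) and CYP4V2 with rbPDI (adjusted p = 0.0106) in bEECs. DESeq2 called GPX2, GPX3 and CYP4V2 with rbCAPG in bEECs (adjusted p = 0.0214, 0.0319 and 0.0285), and GPX2 and CYP4V2 with rbPDI (adjusted p = 0.00963 and 0.000432). These genes have identifiers because the study's DESeq2 lists for rbCAPG held them. The DESeq2 calls with rbCAPG therefore largely repeat that selection and are not independent evidence. Over all alternatives in bEECs, counting the test for a log2 fold change beyond 1, the adjusted p of each of these 3 genes reached 1.00.

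For each enzyme, the 3 genes with a known symbol whose log2 CPM followed it most closely over the 18 samples, after centring within each cell type, were found among 189 candidates. The samples share libraries, animals and treatment groups, and the difference between VC and the proteins is part of each correlation, so Pearson's r is given as a description only. Nearest to PTGS2 were CCL20 (r = 0.961), a chemokine, TNFAIP3 (r = 0.959), an inhibitor of NF-κB signalling, and TNIP1 (r = 0.948), its binding partner. Nearest to PLA2G4A were TNFRSF11B (r = 0.940), the decoy receptor osteoprotegerin, CCRL2 (r = 0.921), a chemerin-binding receptor, and PTGS2 itself (r = 0.890). ALOX12 was followed by CEBPD (r = 0.921), a transcription factor, CYRIA (r = 0.891) and IL1R2 (r = 0.888), the interleukin-1 decoy receptor. NOS2 was followed by ADAMTS5 (r = 0.941), a proteoglycan-cleaving protease, TNFRSF11B (r = 0.937) and PDXK (r = 0.927), pyridoxal kinase. The candidates come from the lists the study called in these samples, which favours genes that moved with rbCAPG.

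**Figure D5:**
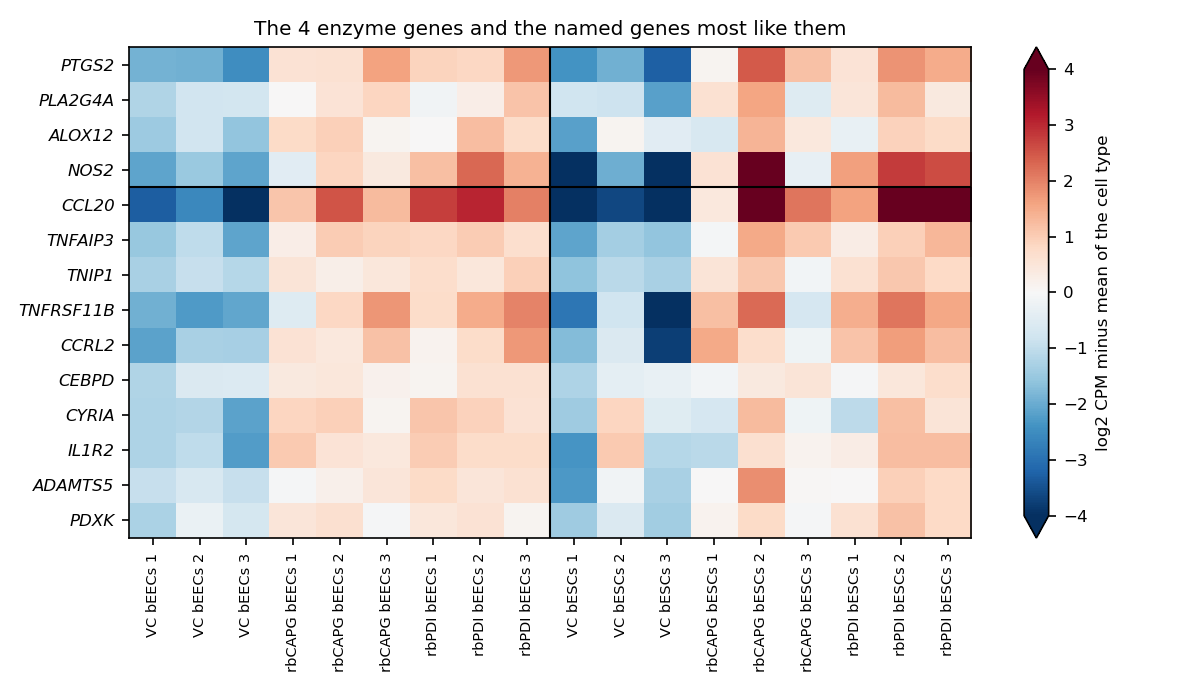
Log2 CPM minus the mean of the cell type (colour, from -4 to 4) in the 18 samples (columns) for the 4 enzyme genes (above the line) and the named genes most like them (below). VC samples are blue for nearly every gene and samples with protein mostly red. The column of rbCAPG bESCs of animal 2 holds the highest value of each of the 4 enzyme genes.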

How the data were processed

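RNA from 18 samples was amplified with a SMART-Seq low-input kit and sequenced as paired ends. The authors trimmed reads with Trimmomatic, aligned them with STAR and used featureCounts on Ensembl genes, dividing reads with several matches or overlapping genes, so the deposited values are estimated counts without normalization. No strand option was stated, so reads from overlapping genes cannot be separated. Values were rounded, filtered with filterByExpr over 6 groups (17931 of 36075 genes kept) and tested with edgeR 4.0.16 in R 4.3.3 (TMM, quasi-likelihood, all samples, 12 residual degrees of freedom), with DESeq2 1.42.0 as an alternative. DESeq2 with a local fit was also the study's own test. Procedures were tested on simulated data. An exact two-sided permutation test of 3 against 3 samples cannot fall below 0.1.

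The members, marker and pathway lists were chosen with earlier results of these data known. Named genes are the 4 enzymes, the pathway genes with an identifier (symbols came from lists the study called, 190 of 245 identifiers) and the 3 genes most like each enzyme. Other alternatives were DESeq2 size factors, no filter, at least 10 counts in 9 samples, fits to fewer samples, unrounded values, no fold limit, glmTreat at a log2 threshold of 1 and each sample left out.

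Replicate numbers pair samples because each device held cells of 1 animal. Deviations from group means correlated within a number at 0.481 on average in bEECs (lowest 0.311) and 0.396 in bESCs (lowest 0.129). Between numbers the averages were -0.239 and -0.199. Centring on means of 3 samples ties these to the averages within a number, so they add no evidence of pairing. Across the cell types, VC bEECs and VC bESCs of the same number correlated more weakly, at 0.113 on average (0.0644 to 0.154). No libraries were duplicates.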

Additional observations from a re-analysis of the deposited data

How the results depend on the processing

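Against the main count of 1 called gene in each comparison with VC, DESeq2 called 2 (rbCAPG) and 3 (rbPDI) of the 4 in bEECs and 3 with each protein in bESCs. DESeq2 was also the study's own test, so its rbCAPG counts largely repeat the selection of these genes. The replicate block called 3 and 4 in bEECs and 4 and 4 in bESCs. The samples compared alone gave 2 and 2 in bEECs and 0 and 0 in bESCs, the 9 samples of the cell type gave 3 for rbPDI in bEECs and 0 and 0 in bESCs, no filter gave 2 and 2 in bESCs, and glmTreat at a log2 threshold of 1 gave 0 for rbCAPG in bEECs and for rbPDI in bESCs. Leaving out 1 sample gave 0 to 1 in bEECs with either protein and 0 to 2 in bESCs with either. The cause of these shifts was not tested. No member's log2 fold change against VC changed sign under any alternative run.

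Between rbPDI and rbCAPG, the block turned PLA2G4A in bEECs to -0.031 and, in bESCs, PTGS2 to 0.0049, PLA2G4A to 0.17, ALOX12 to 0.10 and NOS2 to 0.93, with no call. Leaving out 1 sample moved the log2 fold changes in bEECs over -0.17 to 0.61 (PTGS2), -0.43 to 0.26 (PLA2G4A) and -0.23 to 0.37 (ALOX12), and in bESCs over -0.61 to 0.62 (PTGS2), -0.43 to 0.61 (PLA2G4A), -0.43 to 0.56 (ALOX12) and -0.97 to 2.27 (NOS2). It also moved NOS2 between the cell types with VC over -5.28 to 1.93, and the difference in change between the cell types over -7.33 to 0.59 (NOS2, rbCAPG), -5.40 to 1.79 (NOS2, rbPDI), -0.95 to 0.094 (PLA2G4A, rbCAPG) and -0.17 to 0.72 (GPX3, rbPDI). In bESCs it moved GPX2 over -2.15 to 0.49 and CYP4V2 over -0.26 to 0.088 with rbCAPG, and PLA2R1 over -0.0089 to 0.72, GPX2 over -1.74 to 1.04 and CYP4V2 over -0.34 to 0.0095 with rbPDI. The block changed no other call of a member.

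Of 610 alternative values of the 4 genes, 542 kept direction and side of the threshold, 27 passed it newly, 15 lost it and 26 reversed. All 48 values of a group level under another scaling lay within 1 SD of the main value. NOS2 had no value in fits to the samples compared alone for rbCAPG in bEECs and between cell types, where it was filtered out. With Spearman's rho, 0, 2, 1 and 2 of the 3 genes nearest to PTGS2, PLA2G4A, ALOX12 and NOS2 were kept. Depth limits NOS2 in bEECs, where counts were 34 or fewer.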

Other observations

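Animals differed in these enzymes beyond treatment. Animal 2 had the highest ALOX12 in 6 of 6 groups and the highest NOS2 in 6 of 6 groups, counting both cell types. In VC bEECs that NOS2 rank rests on 1 count against 0 and 0, which cannot order the animals. PTGS2 was highest in animal 2 in 3 of 3 bESC groups and in none of the bEEC groups, and PLA2G4A was highest in animal 3 in 3 of 3 bEEC groups and in none of the bESC groups. These patterns were noticed in the data and were not tested.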
